A study of Mus musculus with 16 samples.

Results

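The comparison set common lymphoid progenitors (CLP) against mature T cells (T), using the 2 CLP libraries and the 2 T libraries of a series of 16. The libraries were chosen by their labels alone, and T cells were kept apart from B cells, whose 2 libraries (B) are given for context. The series profiled snoRNAs, short RNAs of the nucleolus, in 8 hematopoietic populations of wild-type (WT) mouse bone marrow, with 2 libraries of each. CLP and T share genotype, tissue and protocol: no allele, treatment or age is named for either. Cells were sorted by flow cytometry with lineage antibodies (among them CD3, CD4 and CD8 for T cells) and antibodies to Sca-1, c-Kit, Flk2, CD127 and others, but the labels do not give the gate of either population. Whether replicate libraries stem from different mice is also not given, so each p-value rests on a spread between libraries that may be purely technical.

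Most snoRNAs lie in introns of host genes and are cut from the spliced intron. C/D snoRNAs carry C and D boxes and guide 2'-O-methylation of ribosomal RNA, with the guide sequence just before a D box, while H/ACA snoRNAs guide pseudouridylation and a few of both kinds are needed to cut the rRNA precursor. The common lymphoid progenitor gives rise to B, T and other lymphoid cells, and many mature T cells in the marrow are resting cells that recirculate.

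Total counts were 20608796 and 41799906 in the CLP libraries and 12723900 and 18191612 in the T libraries. Of 1885 annotated intervals, 749 passed the filter on low counts. Levels below are CPM, the count over the library size times 1e6, with library sizes adjusted by edgeR's TMM factors (TMM-scaled CPM), in the order library 1, library 2. Replicates were close: the log2 ratio of replicate libraries had an SD of 0.154 in CLP and 0.208 in T, and each of the 4 libraries was nearest to its own replicate among all 16. By raw count, C/D snoRNAs held 91.7% and 91.1% of the reads in CLP and 92.0% and 92.2% in T. H/ACA snoRNAs held 0.564% and 0.511% in CLP and 1.14% and 1.03% in T. Spliceosomal snRNAs held 0.372% and 0.366% in CLP and 0.162% and 0.156% in T. A share of a library cannot tell a rise of one class from a fall of another, and in sorted bulk cells fewer expressing cells and less RNA per cell cannot be told apart.

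At an adjusted p under 0.05, 200 features (26.7% of those tested) were higher in CLP and 157 (21.0%) were lower, and the median log2 difference of all 749 was 0.14. Those shares are the background for each class below. The classes differed in direction: spliceosomal snRNAs and mitochondrial tRNAs had calls upward and none downward, miRNAs were mostly called downward, and C/D snoRNAs went both ways. Scaling by library totals, without a TMM factor, moved the median of all features to 0.63 and the split to 282 higher and 77 lower, so small differences depend on the scale. Ratios within a library do not, but several differences given below are near or under the size of that shift. Without CLP library 2 the lower count was 85, and without T library 1 it was 92.

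**Figure D1:**
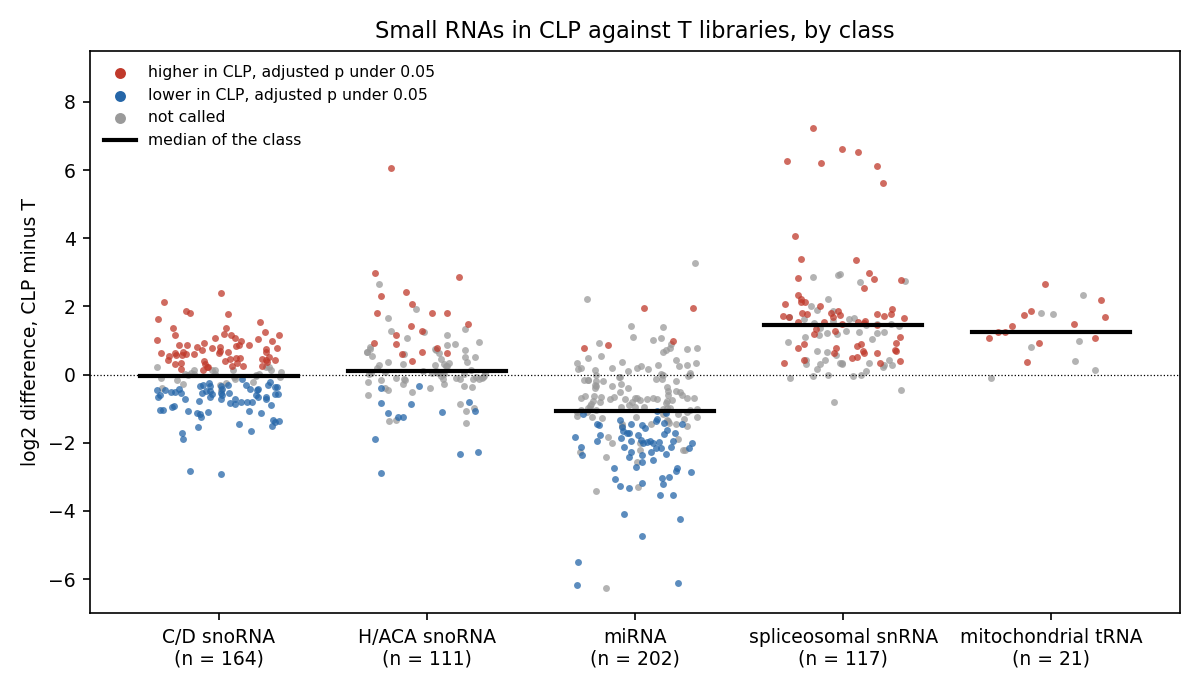
Each point is 1 tested feature, placed by class along the x axis and by its fitted log2 difference, CLP minus T, on the y axis, with black bars at the class medians. The spliceosomal snRNA median (1.45) lies above 0 and the miRNA median (-1.06) below it, and each point above 5 is an interval with no read in T, whose fitted size is not a measured fold.

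Among the 164 C/D snoRNAs tested (of 185 listed), 66 were higher in CLP and 70 lower, with a median of -0.03. Both shares stand above the background of 26.7% and 21.0% for all features. The count of lower ones was 41 without CLP library 2 and 34 without T library 1, and the count of higher ones was 43 without CLP library 1. With library totals as the scale the counts were 95 higher and 27 lower, and with no low-count filter 61 and 39. The most abundant C/D snoRNAs leaned to T: of the 21 with a mean of at least 10000 CPM over all 16 libraries, 6 were higher and 13 lower in CLP, with a median of -0.32.

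The abundant snoRNAs that separate the populations are shown first, because 3 of them together make up a large part of each CLP and T library. Each is given 5' to 3' on its own strand, from GENCODE M21 on GRCm38, with the boxes found in capitals (the C box first and the D box, CTGA, last; for Snord68 the D box alone).
Snord2: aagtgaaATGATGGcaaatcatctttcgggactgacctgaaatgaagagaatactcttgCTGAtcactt
Snord49a: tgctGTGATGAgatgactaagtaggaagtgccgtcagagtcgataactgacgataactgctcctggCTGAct
Snord68: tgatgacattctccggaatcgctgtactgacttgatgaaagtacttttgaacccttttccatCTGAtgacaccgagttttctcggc

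Snord2 lies in an intron of Eif4a2, which encodes a translation initiation helicase, at chr16:23108953-23109021 on the plus strand. It had 75820 and 78360 CPM in CLP, 192500 and 211100 in T and 118600 and 128000 in B. The T libraries were highest, the CLP libraries lowest, and no groups overlapped. It was lower in CLP than in T by a log2 difference of -1.39 ± 0.068 (SE, adjusted p = 5.76e-08). Snord49a lies at chr11:62603450-62603521 on the plus strand. No host gene was assigned to it, but genes with Gm or Rik names were not considered as hosts. Snord49a had 80110 and 79520 CPM in CLP, 162300 and 169400 in T and 158300 and 171700 in B. CLP stood below both lymphocyte populations, which overlapped each other. Its difference between CLP and T was -1.06 ± 0.060 (adjusted p = 1.21e-07), and between B and T it was -0.01 (adjusted p = 0.943). Snord68, in Rpl13 (large ribosomal subunit) at chr8:123103038-123103123 on the plus strand, had 49940 and 50590 CPM in CLP, 100500 and 109400 in T and 79600 and 83120 in B, a log2 difference of -1.06 ± 0.045 between CLP and T (adjusted p = 1.64e-08). The fall of these 3 snoRNAs kept its direction and passed the test under each of the 15 other settings tried. The 45S pre-rRNA, the precursor that snoRNAs modify, had 55930 and 60980 CPM in CLP and 60830 and 61790 in T and was not called (log2 -0.07, adjusted p = 0.626). With library totals its difference was 0.41 (adjusted p = 0.00424), below the median of all features on that scale.

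The C/D snoRNAs with the largest falls and rises are a separate set of scarcer RNAs. Among those with a mean of at least 10 CPM in CLP and T, Snord17 and Snord90 had the largest falls and Snord78 and Gm23187 were among the largest rises, so their sequences are given with the same capitals.
Snord90: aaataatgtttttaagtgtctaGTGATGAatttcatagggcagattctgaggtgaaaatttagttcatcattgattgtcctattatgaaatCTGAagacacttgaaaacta
Snord17: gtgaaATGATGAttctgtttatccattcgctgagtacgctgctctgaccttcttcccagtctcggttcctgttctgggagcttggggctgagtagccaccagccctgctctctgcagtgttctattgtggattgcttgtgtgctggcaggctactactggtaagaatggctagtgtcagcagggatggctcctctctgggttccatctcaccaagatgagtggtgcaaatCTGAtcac
Snord78: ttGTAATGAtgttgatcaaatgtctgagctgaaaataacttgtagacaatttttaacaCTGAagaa
Gm23187: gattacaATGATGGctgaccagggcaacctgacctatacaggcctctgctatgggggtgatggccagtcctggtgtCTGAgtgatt

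Snord17, an unusually long C/D snoRNA of 238 bases in Snx5 (a sorting nexin) at chr2:144265979-144266216 on the minus strand, had 427 and 322 CPM in CLP, 2890 and 2450 in T and 178 and 192 in B. T stood far above both of the others. The log2 difference was -2.83 ± 0.50 between CLP and T (adjusted p = 0.000741) and -3.85 between B and T (adjusted p = 0.000263), and these comparisons share the T libraries. Snord90, in Rc3h2 at chr2:37400047-37400157 on the minus strand, had 639 and 604 CPM in CLP, 2235 and 2372 in T and 1668 and 1541 in B. Here B lay nearer to T, and the difference between CLP and T was -1.89 ± 0.066 (adjusted p = 4.92e-09). Among the 5 largest falls by rule were also Snord88a (-1.72, adjusted p = 0.0113) and Gm26109 of Hspa9 (-1.64, adjusted p = 3.4e-07). Snord88a was below 33 CPM in every CLP and T library and missed the threshold under 2 of the 15 other settings.

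Of the C/D snoRNAs with a mean of at least 10 CPM, Gm24916 rose most. It lies in an intron of Gnl3, which encodes nucleostemin, a nucleolar protein of stem and progenitor cells. Its sequence is given below with its 18S-complementary run. It had 1722 and 1765 CPM in CLP, 371 and 421 in T and 926 and 952 in B. CLP was highest and T lowest, with a difference of 2.14 ± 0.089 (adjusted p = 1.64e-08). Snord78, in Gas5 at chr1:161036984-161037049 on the plus strand, had 300 and 321 CPM in CLP and 73.8 and 95.1 in T, a difference of 1.88 ± 0.11 (adjusted p = 1.37e-07). Gm23187, in Nop56 at chr2:130277195-130277280 on the plus strand, had 109 and 105 CPM in CLP and 29.6 and 31.5 in T, a difference of 1.81 ± 0.10 (adjusted p = 1.21e-07). Gm22571 of Rpl4 (1.64, adjusted p = 3.27e-06) and Gm23090 of Ubap2 (1.54, adjusted p = 0.000265) completed the 5 largest rises at this level. All 5 passed the test under each of the 15 other settings. A scarcer snoRNA, Gm22200 of Hspa9, had a larger fitted rise of 2.38 ± 0.44 (adjusted p = 0.000967), with a mean of 2.24 CPM.

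**Figure D2:**
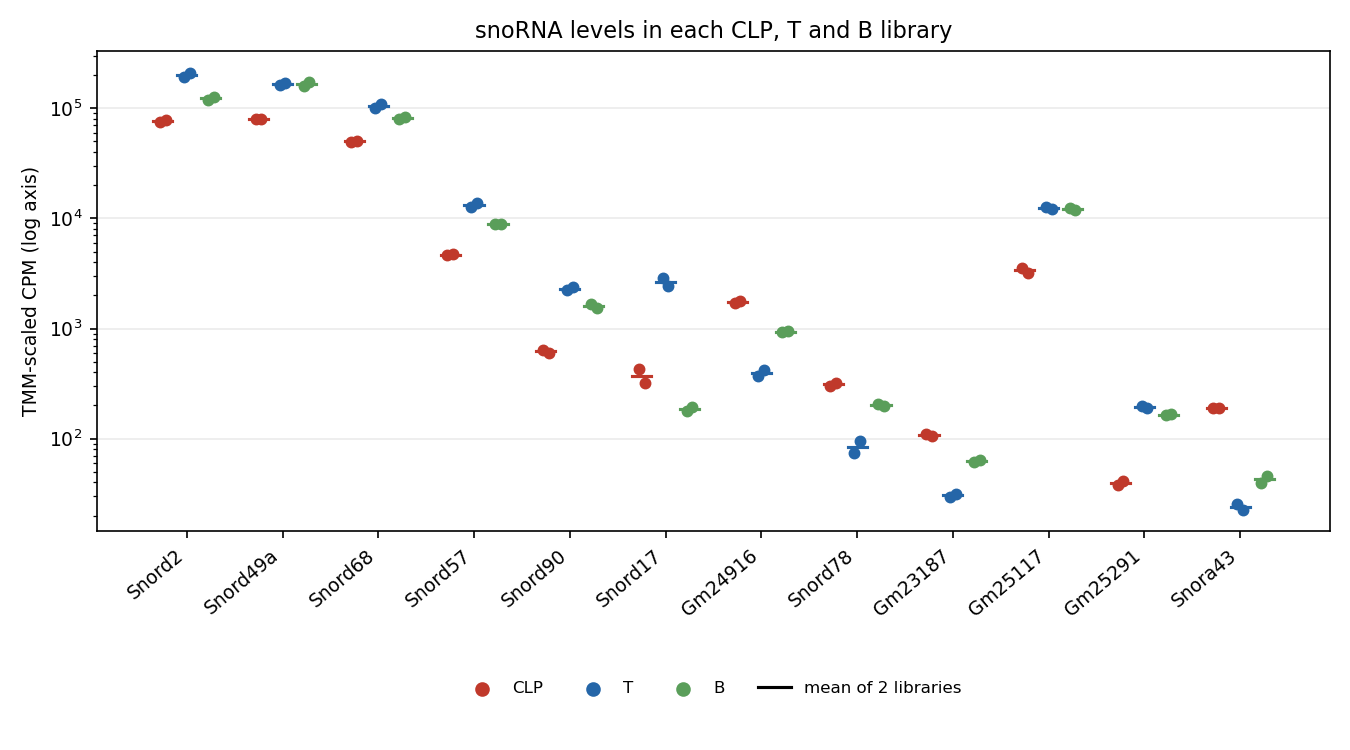
TMM-scaled CPM (log axis) of 12 snoRNAs in each CLP, T and B library, with a bar at the mean of the 2 libraries. Snord2, Snord49a, Snord68, Snord57, Snord90, Gm25117 and Gm25291 lie lowest in CLP, Gm24916, Snord78, Gm23187 and Snora43 lie highest in CLP, and Snord17 is highest in T and lowest in B.

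Opposite calls occurred among snoRNAs cut from the same host transcript. Of 48 host genes with at least 2 tested snoRNAs, 19 carried both a rise and a fall, and 10 of the 19 did so also with library totals as the scale. Across the other settings the number of such hosts was 12 (without T library 1) to 22. Of all tested C/D snoRNAs, 40.2% were called higher and 42.7% lower. Whether 19 hosts differ from what such shares give regardless of host was not tested. Because the ratio of 2 snoRNAs in one library does not depend on the scale, it is given for a pair in several of these hosts. Each pair sets a called rise against a called fall, so the direction of its ratio follows from that choice. The abundance of the host transcripts was not measured here.

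Nop56 and Nop58 encode the core proteins of the C/D particle and themselves host C/D snoRNAs. In Nop56, Snord57, a guide for 18S rRNA methylation, had 4624 and 4743 CPM in CLP, 12760 and 13730 in T and 8911 and 8919 in B, a difference of -1.50 ± 0.043 between CLP and T (adjusted p = 1.12e-09). Its neighbour Gm23187 went the other way, so the ratio of Gm23187 to Snord57 was 0.0236 and 0.0221 in CLP and 0.00232 and 0.00229 in T. Of the other Nop56 snoRNAs, Gm23650 was higher (0.50), Snord110 lower (-0.42; 0.06 with library totals) and Gm24451 not called. In Nop58, Snord70 had 340 and 341 CPM in CLP and 164 and 197 in T (0.92 ± 0.083, adjusted p = 3.97e-06), whereas Snord11 had 89.0 and 83.0 in CLP and 120 and 131 in T (-0.54 ± 0.12, adjusted p = 0.00322). The fall of Snord11 did not pass under 4 of the other settings, among them those without CLP library 2 and without T library 1.

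Gas5, a noncoding gene whose main products are its intronic snoRNAs, had 10 snoRNAs tested, 7 higher in CLP and 3 lower. With library totals 9 were higher and none lower, so its 3 falls rest on the scale. Only 1 fall was called without CLP library 2 or without T library 1. The ratio of Snord78 to the lower of 2 intervals named Snord80 was 0.120 and 0.123 in CLP and 0.0207 and 0.0241 in T. These 2 intervals overlap and may share reads: one had 2500 and 2601 CPM in CLP and 3571 and 3946 in T (-0.56), and the other 9364 and 8834 in CLP and 5734 and 5993 in T (0.63). The most abundant Gas5 snoRNA, Gm26224, had 170400 and 165900 CPM in CLP and 196500 and 205700 in T, a small fall of -0.26 ± 0.054 (adjusted p = 0.00217) that became 0.22 with library totals.

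Snhg1, another noncoding host, had 4 snoRNAs higher and 3 lower of 8. With library totals the counts were 6 and 1, without CLP library 1 or T library 2 they were 2 and 2, and without T library 1 they were 3 and 1. The smallest of the 3 falls, that of Gm24452 (-0.14), was not called under 11 of the other settings and changed sign with library totals. Its extremes were Gm24453, with 691 and 655 CPM in CLP and 264 and 308 in T (1.24 ± 0.078, adjusted p = 2.7e-07), and Gm23246, with 7692 and 7359 in CLP and 20440 and 20810 in T (-1.46 ± 0.077, adjusted p = 9.28e-08). Their ratio was 0.0898 and 0.0890 in CLP and 0.0129 and 0.0148 in T. In Gnl3 the ratio of Gm24916 to Snord69 was 4.51 and 4.56 in CLP and 0.744 and 0.765 in T, which reverses the order of the 2 snoRNAs between the populations. Zfas1, a noncoding gene, had Gm25878 at 17160 and 16960 CPM in CLP and 8031 and 8663 in T (1.03 ± 0.046, adjusted p = 2.61e-08), and its ratio to Snord12 was 1.45 and 1.42 in CLP and 0.565 and 0.563 in T. The order of these 2 also differed between the populations. The falls of Snord69 and Snord12 were not called without CLP library 2 or without T library 1, and both differences changed sign with library totals.

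Ribosomal protein genes other than Rpl13a hosted 52 tested snoRNAs, of which 22 were higher and 14 lower (29 and 7 with library totals). The count of higher ones was 12 without CLP library 1, and that of lower ones was 9 without CLP library 2 and 7 without T library 1. In Rpl4, 4 snoRNAs were higher and Snord16a lower (496 and 485 CPM in CLP, 853 and 843 in T, -0.79 ± 0.067, adjusted p = 2.5e-06). The ratio of Gm22571 to Snord16a was 0.0736 and 0.0682 in CLP and 0.0125 and 0.0138 in T. In Ncl, the gene of nucleolin, Snord82 had 15610 and 15720 CPM in CLP and 9542 and 10270 in T (0.66 ± 0.054, adjusted p = 1.84e-06). Gm24148 of the same gene had 104 and 102 in CLP and 218 and 245 in T (-1.17 ± 0.089), but it overlaps an interval annotated as a miRNA and its reads may be split. The ratio of Snord82 to Gm24148 was 150 and 155 in CLP and 43.8 and 41.9 in T. In Eif4a2, host of Snord2, 3 scarce snoRNAs below 45 CPM were higher, but 1 of the 3 was called when any 1 of the 4 libraries was left out.

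**Figure D3:**
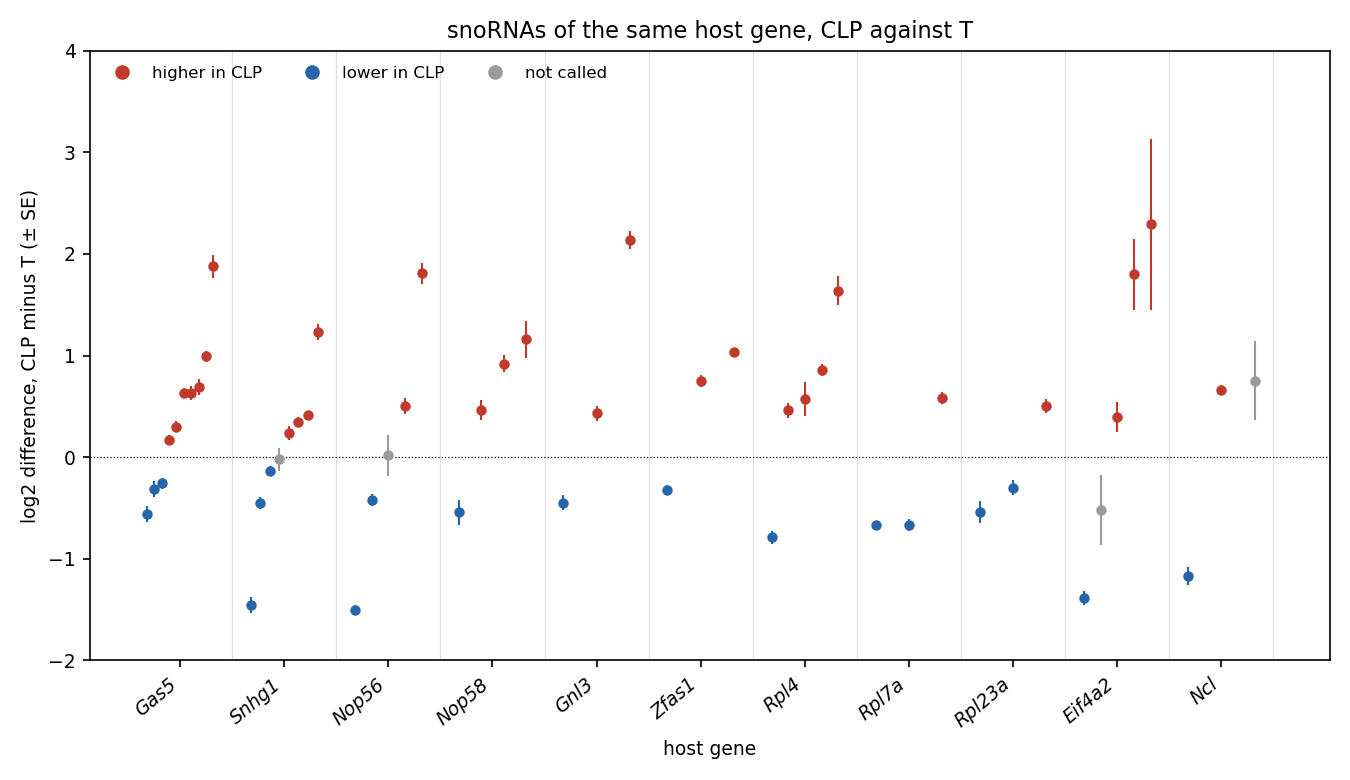
Fitted log2 difference, CLP minus T, with its SE, for every tested snoRNA of 11 host genes that carried both a rise and a fall, ordered by value within each gene. Points of one host spread from -1.50 to 1.81 in Nop56 and from -0.56 to 1.88 in Gas5.

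Some snoRNAs share a guide, and for these the calls could be set side by side. The 185 C/D snoRNAs were searched for an unbroken run of at least 11 bases complementary to mouse 18S rRNA that ends at most 2 bases before a CTGA, and 34 of them (18.4%) had one. Such a match describes letters and does not show that the site is modified, and 28S and 5.8S rRNA were not searched. A run was present in 23 of the 66 C/D snoRNAs higher in CLP, 10 of the 70 lower and 1 of the 28 not called. In 9 sets, 2 to 4 tested snoRNAs had runs against the same or overlapping stretches of 18S rRNA. Sets were built by chaining overlaps, so some members, as Snord45b and Gm24494, are joined mainly through another run. In 3 of the 9 a rise and a fall met on the same stretch, and 6 of their members are shown with the run in capitals, followed by the pair of Gnl3.
Snord42b: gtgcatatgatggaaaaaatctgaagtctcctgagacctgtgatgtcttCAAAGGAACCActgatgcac
Snord42a: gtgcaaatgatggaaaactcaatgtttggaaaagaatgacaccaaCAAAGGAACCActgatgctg
Gm26287: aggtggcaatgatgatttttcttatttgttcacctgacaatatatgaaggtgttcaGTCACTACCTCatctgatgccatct
Snord11: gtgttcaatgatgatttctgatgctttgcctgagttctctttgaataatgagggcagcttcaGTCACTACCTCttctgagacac
Gm22879: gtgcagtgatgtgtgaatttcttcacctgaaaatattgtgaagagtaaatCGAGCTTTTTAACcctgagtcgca
Gm24134: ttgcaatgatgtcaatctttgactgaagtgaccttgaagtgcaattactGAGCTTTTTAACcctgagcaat
Gm24916: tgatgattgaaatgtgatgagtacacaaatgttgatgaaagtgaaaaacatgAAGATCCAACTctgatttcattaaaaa
Snord19: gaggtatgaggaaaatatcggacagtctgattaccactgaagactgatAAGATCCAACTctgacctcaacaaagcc

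Snord42b and Snord42a, both in Rpl23a (large ribosomal subunit) on chromosome 11, carry the same 11-base run at bases 50 to 60 and 46 to 56 of their own sequences, and have no similar copy. Snord42b had 686 and 708 CPM in CLP and 472 and 514 in T (0.50 ± 0.071, adjusted p = 0.00015), and Snord42a had 417 and 420.2 in CLP and 501 and 530.2 in T (-0.30 ± 0.071, adjusted p = 0.00485; 0.18 with library totals). The fall of Snord42a was not called without CLP library 2 or without T library 1. The ratio of Snord42b to Snord42a was 1.65 and 1.69 in CLP, 0.942 and 0.969 in T and 1.29 in both B libraries. Summed, the 2 had 1103 and 1128 CPM in CLP and 972 and 1044 in T, a ratio of group means of 1.11 on the TMM scale.

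Gm22879 and Gm24134, both in Rpl7a on chromosome 2, have runs of 13 and 12 bases against one stretch. Gm22879 had 7425 and 7579 CPM in CLP and 4756 and 5273 in T (0.58 ± 0.061, adjusted p = 1.42e-05), and Gm24134 had 1205 and 1223 in CLP and 1845 and 2003 in T (-0.66 ± 0.060, adjusted p = 3.92e-06). Both calls held with library totals. Their ratio was 6.16 and 6.20 in CLP, 2.58 and 2.63 in T and 5.05 and 4.99 in B, so B lay nearer to CLP than to T. Of the Nop58 set, Gm26287 and Snord11 had a ratio of 0.334 and 0.333 in CLP and 0.112 and 0.0942 in T, with 29.8 and 27.7 CPM of Gm26287 in CLP and 13.4 and 12.4 in T (1.16 ± 0.18, adjusted p = 0.000288). With Snord70 and Gm26293, whose runs overlap the same stretch, the 4 snoRNAs summed to 589 and 578 CPM in CLP and 384 and 439 in T.

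In Gnl3 both snoRNAs with the shared run were higher in CLP, Gm24916 by 2.14 and Snord19 by 0.43 ± 0.076 (360 and 350 CPM in CLP, 261 and 266 in T, adjusted p = 0.000729; not called without CLP library 1 or T library 2). Their sum was 2082 and 2115 CPM in CLP and 631 and 686 in T, a ratio of means of 3.19 that was the largest of the 9 sets. The sums of the other sets had ratios of 1.11 to 2.01, all above 1 on the TMM scale. Of the runs with no partner, the 2 longest, of 16 bases in Snord57 and 20 in Gm24148, belong to snoRNAs that were lower in CLP.
Snord57: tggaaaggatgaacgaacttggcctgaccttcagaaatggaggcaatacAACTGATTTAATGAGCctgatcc
Gm24148: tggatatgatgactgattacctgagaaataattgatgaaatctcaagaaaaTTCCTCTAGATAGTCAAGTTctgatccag

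**Figure D4:**
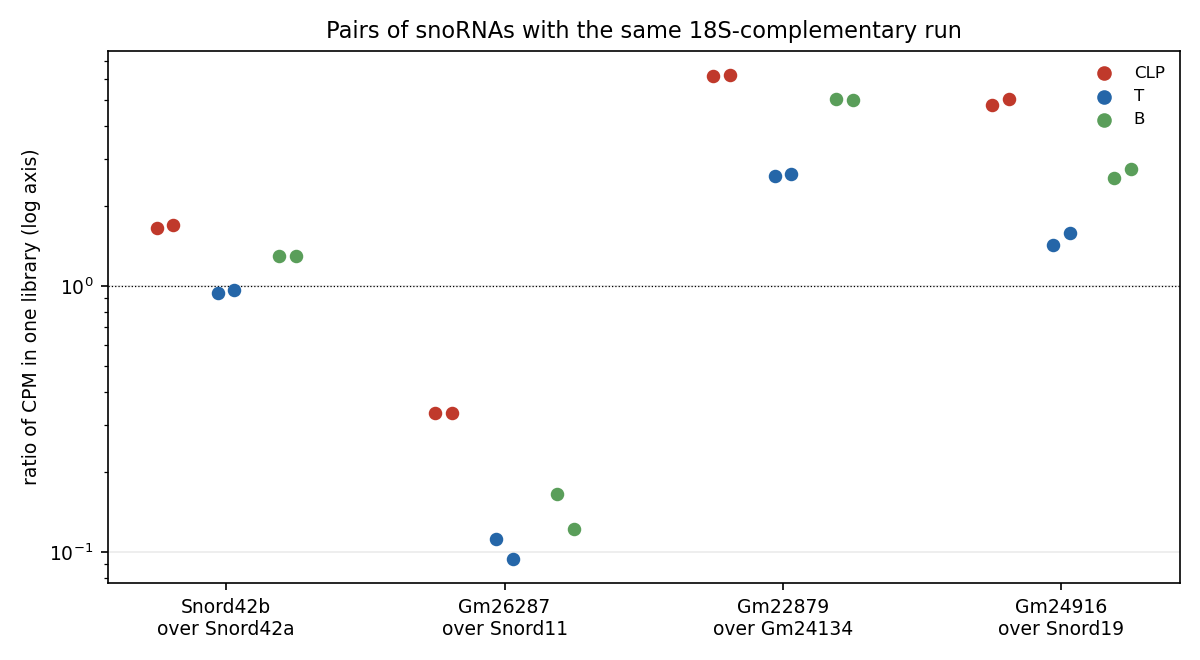
Ratio of 2 snoRNAs with the same run complementary to 18S rRNA, 1 point per library on a log axis, for CLP, T and B. The snoRNA with the rise, or with the larger rise, is the numerator of each pair, so higher ratios in CLP follow from that choice. The CLP and T libraries had 1.65 and 1.69 against 0.942 and 0.969 for Snord42b over Snord42a. They had 4.79 and 5.04 against 1.42 and 1.58 for Gm24916 over Snord19.

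The snoRNAs on the rRNA-processing list, most of them needed to cut the rRNA precursor, did not move together. Of 19 tested intervals of this list, 6 were higher and 9 lower in CLP. All 4 copies of U14, which acts in 18S rRNA maturation and also carries an 18S guide, were higher: Snord14c had 1083 and 1016 CPM in CLP and 646 and 672 in T (0.67 ± 0.077, adjusted p = 2.78e-05), and the other 3 differed by 0.49 to 0.77. Snord14c and Snord14d are similar copies whose reads may be shared. Snord13 (U13), a guide for 18S acetylation, had 187 and 171 CPM in CLP and 118 and 130 in T (0.53 ± 0.12, adjusted p = 0.00407). Snora73a (U17) had 352 and 278 in CLP and 223 and 189 in T (0.61 ± 0.16, adjusted p = 0.00937) but has a similar or overlapping interval. Snord118 (U8), which acts on the large-subunit rRNAs, had 86.3 and 87.6 in CLP and 121 and 139 in T (-0.58 ± 0.085, adjusted p = 0.000196).

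U3, which acts early in 18S maturation, was counted in 10 intervals that overlap or copy each other, so its reads are spread over them. The 10 summed to 470 and 444 CPM in CLP and 691 and 657 in T. The 8 intervals of the U3b genes were lower by -0.55 to -0.81, while both Rnu3a intervals were not called (0.05 and -0.02). No U3 interval was called without CLP library 2 or without T library 1, and with library totals none was lower and 2 were higher. Over the whole list, library totals gave 10 higher and 0 lower. The U14 rise passed in all 4 copies on each of the scales, and in 3 of the 4 without CLP library 1. The calls of Snord13 and Snora73a were lost without CLP library 1, and that of Snora73a also without T library 2. Over the whole list 3 were higher without CLP library 1, and 1 was lower without CLP library 2 or without T library 1.

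H/ACA snoRNAs held a smaller share of reads in CLP, and that share followed a single RNA. Among those with a mean of at least 10 CPM, Gm25117 and its relative Gm25291 were the leading falls and Snora43 the leading rise, shown with the H box and the final ACA in capitals.
Gm25117: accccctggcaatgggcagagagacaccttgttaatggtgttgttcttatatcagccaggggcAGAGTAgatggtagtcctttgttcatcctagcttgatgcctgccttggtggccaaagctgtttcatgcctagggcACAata
Gm25291: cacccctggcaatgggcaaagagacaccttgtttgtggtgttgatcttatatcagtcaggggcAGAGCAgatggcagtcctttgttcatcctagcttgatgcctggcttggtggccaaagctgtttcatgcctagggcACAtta
Snora43: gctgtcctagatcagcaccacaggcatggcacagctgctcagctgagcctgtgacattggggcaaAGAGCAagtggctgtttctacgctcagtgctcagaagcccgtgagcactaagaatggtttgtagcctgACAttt

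Gm25117, in Nap1l1 (a nucleosome assembly protein) at chr10:111481493-111481636 on the plus strand, had 3568 and 3185 CPM in CLP, 12760 and 12280 in T and 12400 and 12030 in B. All tested H/ACA snoRNAs summed to 5126 and 4634 CPM in CLP and 14050 and 13510 in T, so this RNA held most of the class in each library. It was lower in CLP by -1.89 ± 0.11 (adjusted p = 1.21e-07) and was not called between B and T (-0.04, adjusted p = 0.847). Gm25291, in Sec24a at chr11:51737779-51737922 on the minus strand, differs from Gm25117 at 11 of 144 positions. It had 38.2 and 41.0 CPM in CLP, 196 and 190 in T and 164 and 166 in B (-2.29 ± 0.17, adjusted p = 9.42e-07). The 2 sequences are close enough that some reads of the abundant one may be counted on the other, which was not tested.

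Snora43, at chr2:26637847-26637985 on the minus strand, had 191 and 188 CPM in CLP, 25.6 and 22.7 in T and 39.4 and 45.8 in B. CLP stood apart from both lymphocyte populations, with a difference from T of 2.97 ± 0.15 (adjusted p = 5.98e-08), but a second interval of nearly the same sequence overlaps it. Snora31 of Tpt1 had 22.6 and 23.7 CPM in CLP and 5.42 and 3.31 in T (2.42 ± 0.39, adjusted p = 0.000357), and Snora26 of Dancr was higher by 1.80 ± 0.15 (adjusted p = 2.17e-06). Of the 111 H/ACA snoRNAs tested (of 165 listed), 20 were higher and 14 lower, shares below the background of all features. Most of them, 85, had a mean under 10 CPM over all 16 libraries. With the filter at a mean of 10 CPM in CLP and T, 12 of 23 were higher and 4 lower, against 125 and 99 of all 304 features. The lower count was 5 to 8 without any 1 of the 4 libraries, and library totals gave 39 higher and 6 lower. The 2 scaRNAs, guides of the Cajal body that act on snRNAs, were not called (Scarna10 -0.58, adjusted p = 0.0781; Scarna9 -0.37, adjusted p = 0.216).

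miRNA intervals were called downward in CLP in 68 of 202 tested cases (of 547 listed) and upward in 5, with a median of -1.06. Summed, the 202 had 8382 and 9171 CPM in CLP, 19840 and 22880 in T and 8192 and 8792 in B. By this sum B overlapped CLP, and T stood above both. The downward share, 33.7%, exceeds the background of 21.0%. It was 40 calls without CLP library 1, 36 without CLP library 2, 42 with library totals and 117 without the populations whose replicates spread most (GMP, MEP and Erythroid). The libraries were cut from a gel at snoRNA length, so these reads come from the hairpin intervals, and mature and precursor forms cannot be told apart.

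Mature sequences of the leading miRNAs are from RefSeq on GRCm38.p6, which matched 55 of the 68 lower hairpins and 4 of the 5 higher ones. The seed, bases 2 to 8, is in capitals. The miR-29 members share one seed, and the others are lymphocyte miRNAs named below.
miR-29a-3p: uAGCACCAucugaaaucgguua
miR-29b-3p: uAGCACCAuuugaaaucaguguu
miR-29c-3p: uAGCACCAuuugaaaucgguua
miR-342-3p: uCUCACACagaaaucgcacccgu
miR-146a-5p: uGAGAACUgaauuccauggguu
miR-155-5p: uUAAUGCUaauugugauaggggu
miR-181a-5p: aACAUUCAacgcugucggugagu

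Mir150, a miRNA of mature lymphocytes, had the largest fall of the named miRNAs: 10.5 and 9.90 CPM in CLP, 259 and 285 in T and 74.5 and 89.1 in B. B lay between the others, and the difference between CLP and T was -4.74 ± 0.53 (adjusted p = 2.2e-05). Mir342, in the Evl gene, had 5.38 and 8.55 CPM in CLP and 64.9 and 62.5 in T (-3.18 ± 0.63, adjusted p = 0.00157). Mir146, a brake on NF-kB signalling in T cells, had 18.6 and 17.9 in CLP and 112 and 132 in T (-2.74 ± 0.50, adjusted p = 0.000863). Mir155, needed for lymphocyte responses, had 2.3 and 3.26 in CLP and 12.2 and 12.5 in T (-2.14 ± 0.34, adjusted p = 0.000318). Mir181a-1, which tunes T-cell receptor sensitivity during thymic development, had 23.3 and 29.2 in CLP and 93.6 and 119 in T (-2.02 ± 0.51, adjusted p = 0.00707). Of the 9 lymphocyte miRNAs on the marker list, 6 were lower in CLP and none higher, and Mir146b, at 133 and 147 CPM in CLP and 125 and 156 in T, overlapped between the groups. Summed, the 9 had 232 and 264 CPM in CLP, 789 and 889 in T and 324 and 353 in B, so B lay nearer to CLP.

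All 4 miR-29 hairpins were lower in CLP, with a median of -2.44. Their sum was 12.97 and 11.15 CPM in CLP, 56.17 and 66.09 in T and 17.55 and 19.23 in B, so B lay nearer to CLP. Mir29a had 11.6 and 10.5 CPM in CLP and 50.4 and 59.3 in T (-2.32 ± 0.48, adjusted p = 0.0022), and the other 3 were below 4 CPM in all 4 libraries. With library totals 3 of the 4 were called, and without CLP library 2 only Mir29a was called. The 3 miR-26 hairpins, which share the seed UCAAGUA, were lower as well, as were both miR-16 hairpins of the seed AGCAGCA: Mir16-1 had 46.5 and 50.02 CPM in CLP and 125 and 136 in T (-1.43 ± 0.45, adjusted p = 0.0217). The miR-16 calls were lost with library totals and without either CLP library. Under the same settings Mir26a-1 was the one miR-26 hairpin still called. The most abundant miRNA, Mir21a, had 2847 and 3092 CPM in CLP, 9110 and 10500 in T and 2881 and 3104 in B (-1.72 ± 0.51, adjusted p = 0.0167), so B overlapped CLP and stood apart from T. The Mir21a call was lost with library totals and without either CLP library.

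Of the 6 hairpins of the Mir23/24/27 clusters, 4 were lower in CLP and none higher, with a median of -1.68. Mir24-2 and Mir27b kept their calls under each setting that tested them, and 2 of the 6 were called without CLP library 2. In the Mir183 cluster both tested hairpins were lower. Mir182 had 0.177 and 0.391 CPM in CLP and 6.20 and 4.17 in T (-4.08 ± 0.72, adjusted p = 0.000729), while Mir183 lost its call when any 1 of the 4 libraries was left out. Of 6 miR-30 hairpins 2 were lower, but none with library totals, without T library 1 or without either CLP library. All 6 were lower with the 4 CLP and T libraries alone, without GMP, MEP and Erythroid, and with no low-count filter.

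For let-7 the outcome turned on the setting. None of the 10 let-7 hairpins was called in the reported fit, although all 10 fitted differences lay below 0 (-0.64 to -1.26). Mirlet7g had 270 and 304 CPM in CLP and 629 and 747 in T (adjusted p = 0.0539). Other fits on all 16 libraries called 0 to 3 of the hairpins lower, the most with no low-count filter. All 10 were called lower with the 4 CLP and T libraries alone and also without GMP, MEP and Erythroid. In the Mir17-92 cluster, which promotes lymphocyte proliferation and survival, Mir19a was higher (8.92 and 10.3 CPM in CLP, 6.20 and 5.03 in T, 0.78 ± 0.27, adjusted p = 0.0327) and the other 5 were not called. The Mir19a call was lost without T library 2 or either CLP library, and with factors from snoRNAs and scaRNAs alone. With the 4 libraries alone, and without GMP, MEP and Erythroid, 3 of the cluster were higher and 1 lower. Mir17 had 104 and 110 CPM in CLP and 53.5 and 71.0 in T, and Mir20a 164 and 190 in CLP and 93.8 and 113 in T, without overlap between the groups. For comparison, 75.7% of all 749 features did not overlap between CLP and T.

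Markers of other cells were read from the same list. The erythroid miRNA Mir451a, counted in one interval with its antisense partner Mir451b, had 122 and 131 CPM in CLP, 28.9 and 36.6 in T and 11.9 and 12.4 in B, a difference of 1.95 ± 0.29 (adjusted p = 0.000185). The 3 erythroid miRNAs summed to 128 and 138 CPM in CLP and 32.2 and 39.5 in T, and Mir144 and Mir486 were not called. All 3 were called higher with the 4 libraries alone and without GMP, MEP and Erythroid. Their part in the other differences was not tested. The myeloid miRNA Mir223 had 273 and 295 CPM in CLP and 293 and 335 in T and was not called (-0.15, adjusted p = 0.765). The 6 tested miRNAs of stem and progenitor cells were not called, though 3 were lower without GMP, MEP and Erythroid. The most abundant, Mir10a, had 200.7 and 219 CPM in CLP and 312 and 364 in T (adjusted p = 0.265).

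**Figure D5:**
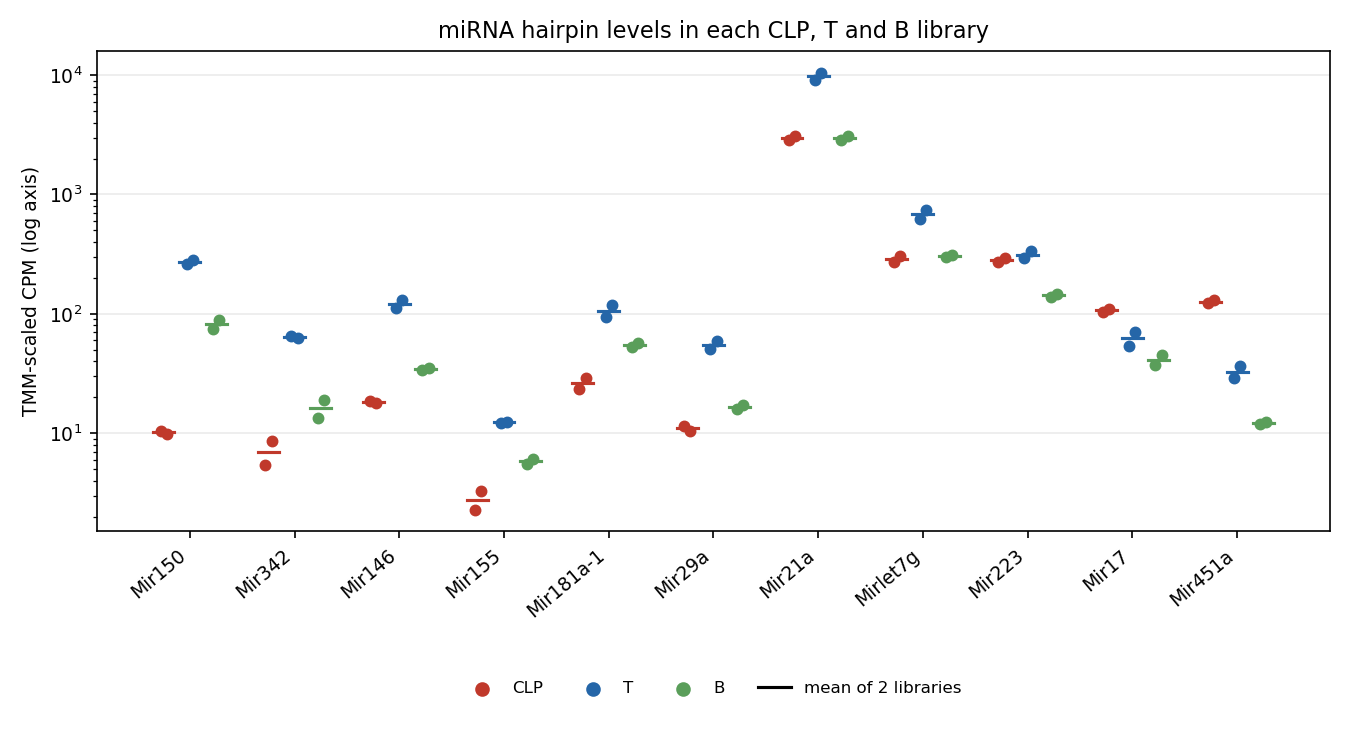
TMM-scaled CPM (log axis) of 11 miRNA hairpin intervals in each CLP, T and B library, with a bar at the mean of the 2 libraries. Mir150 spans from 9.90 CPM in CLP to 285 in T, and Mir451a is highest in CLP while the points of Mir223 lie close together in CLP and T.

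Spliceosomal snRNA intervals rose in CLP in 63 of 117 tested cases (of 374 listed), and none fell. Their share of calls upward, 53.8%, is above the 26.7% of all features, and the median was 1.45. Most of them, 101 of 117, have a similar copy or an overlap, so single loci are uncertain and sums are given. Intervals of U1 length (160 to 170 bases) summed to 650 and 715 CPM in CLP and 391 and 423 in T, with 20 of 23 called higher. Those of U2 length (180 to 200 bases) summed to 1915 and 1816 in CLP and 1158 and 1155 in T, with 16 of 17 higher. Those of U4, U5 and U11 length (over 110 and under 150 bases) summed to 577 and 549 in CLP and 304 and 309 in T, with 10 of 17 higher. U6-length intervals (100 to 110 bases) were scarce, at 41.8 and 41.6 in CLP and 13.8 and 16.2 in T. Of these, 15 of 56 were called higher and none lower, and that upward share (26.8%) is near the 26.7% of all features.

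The 15 snRNA intervals without a similar copy or overlap gave 10 rises and no fall. Rnu11, a part of the minor spliceosome, was one of them, with 6.62 and 7.64 CPM in CLP and 1.94 and 2.59 in T (1.65 ± 0.26, adjusted p = 0.000332). Rnu12, of the same spliceosome but with similar copies, had 176 and 175 in CLP and 120 and 126 in T (0.51 ± 0.088, adjusted p = 0.000587). Rnu7, which processes histone mRNA ends, had 272 and 282 CPM in CLP and 163 and 172 in T (0.73 ± 0.082, adjusted p = 2.46e-05). By rule the leading rises were Gm25360 (97.7 and 92.2 CPM in CLP, 25.1 and 24.9 in T, 1.93 ± 0.11, adjusted p = 1.21e-07), Gm24497 (1.73) and Gm26316 (1.71), each with many similar copies.

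Mitochondrial tRNAs rose in CLP in 13 of 21 tested cases and none fell, with a median of 1.26. The tRNA for alanine, mt-Ta, had 21.4 and 18.2 CPM in CLP and 5.23 and 5.60 in T (1.87 ± 0.18, adjusted p = 6.1e-06). The tRNA for methionine, mt-Tm, had 30.1 and 32.2 in CLP and 8.33 and 11.1 in T (1.68 ± 0.16, adjusted p = 6.76e-06), and mt-Tl1, a leucine tRNA, was not called (6.97 and 6.43 in CLP, 6.01 and 8.33 in T). Of the mitochondrial rRNAs, the large-subunit mt-Rnr2 had 294 and 264 in CLP and 120.0 and 133 in T (1.14 ± 0.11, adjusted p = 7.55e-06) and the small-subunit mt-Rnr1 was not called. Among 7 housekeeping RNAs, Rn7sk, which holds the elongation factor P-TEFb inactive, had 91.8 and 92.3 in CLP and 40.7 and 38.1 in T (1.23 ± 0.099, adjusted p = 1.82e-06). The Y RNA Rny1 was higher by 0.54 ± 0.17 (adjusted p = 0.0217), though not under 4 of the other settings. Rny3, Rn7s1, Rn7s2, Terc and Vaultrc5 were not called.

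The snoRNAs of the imprinted Dlk1-Gtl2 locus, which the series' title names, could not be compared. The 6 intervals listed in these libraries had 20 and 24 reads in all in CLP and 8 and 10 in T, and none passed the low-count filter.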

How the data were processed

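Libraries were prepared from Trizol-extracted RNA with a NEBNext small RNA kit, cut from a gel at snoRNA length and sequenced on a NovaSeq instrument, per the labels. The submitters' processing notes name Trimmomatic 0.38, Bowtie2 2.3.4.1 and GRCm38. The counting program, the annotation and the use of strand are not given in the sources used here, so reads of overlapping or antisense intervals cannot be told apart. The deposited values are raw read counts per interval, with absent intervals taken as 0. Between 89.0% and 93.2% of the values of a library were even, so both mates of a pair seem to have been counted.

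Of 1885 intervals, 1884 were matched by exact coordinates to GENCODE M21, and 1 is named by an accession of the 45S pre-rRNA. Unnamed snoRNAs were classed by their boxes, a rule adjusted on named ones (74 of 93 C/D and 37 of 41 H/ACA recovered, the rest left unclassified). Similar copies (at least 95% identity over 90% of the length) were found with blastn 2.17.0. Counts of all 16 libraries were fitted with edgeR 4.0.16 (R 4.3.3): filterByExpr at a minimum count of 10, TMM, 1 mean per population, quasi-likelihood test with 8 residual degrees of freedom, and Benjamini-Hochberg adjustment over 749 features at 0.05. SEs are the log2 difference over the root of F. The fit assumes that a feature varies alike in all populations. An exact permutation test of 2 against 2 libraries cannot go below 0.333. On simulated data the fit recovered 53.2% of true log2 changes of 1 and 79.6% of those of 2, so features not called may still differ.

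Named features were, by class, the largest rises and falls among calls with a mean of at least 10 CPM in CLP and T and no overlap, the 5 most abundant features, the fixed lists, and called snoRNAs of hosts with both a rise and a fall. Mir21a, Rnu11, Rnu12, mt-Tl1, both mitochondrial rRNAs and the snoRNAs sharing an 18S run were picked with their values in view. The comparison and its lists were chosen with earlier results of these data known. The 15 alternatives comprise scalings, filters, DESeq2 1.42.0, other sets of libraries, a replicate block, halved counts, similar copies left out and each of the 4 libraries left out. Some named features and host genes are not reported here.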

Additional observations from a re-analysis of the deposited data

How the results depend on the processing

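With library totals in place of TMM, 277 of the 357 calls kept their direction and 77 features were lower in CLP (157 in the reported fit). Of the named differences called in either of these fits, 14 changed sign, to 0.22 for Gm26224, 0.41 for the 45S pre-rRNA, 0.46 for an Rnu3a interval, 0.46 for Snord22, 0.17 for Gm22489, 0.12 for Gm23130, 0.078 for Gm24044, 0.35 for Gm24452, 0.030 for Gm25855, 0.058 for Snord110, 0.16 for Snord12, 0.13 for Snord32a, 0.18 for Snord42a and 0.036 for Snord69. The cause was not tested. Under the other 14 settings, no named difference called there or in the reported fit changed sign. Differences near 0 that were not called did, as for the 45S pre-rRNA (-0.069 in the reported fit, 0.067 with no low-count filter). A filter at a mean of 10 CPM left 304 to test, with 125 higher and 99 lower. Leaving out similar copies and overlaps left 453, with 110 higher and 113 lower. Of the 142 named features, 71 differed between B and T in the reported fit, where 211 of all 749 features (28.2%) did. Without similar copies and overlaps the number was 47, but fewer of the named features were tested there. Many named features were chosen by their CLP and T values, and the T libraries serve in both comparisons. Their share called between B and T is therefore not comparable with that of all features. Leaving out 1 of the 4 libraries kept 256 to 265 of the 357 calls and gave 142 to 181 higher and 85 to 129 lower, and 45 to 68 named differences between B and T. DESeq2 called 193 higher and 176 lower, and the 4 libraries alone (2 residual degrees of freedom) 232 and 206. The replicate numbers were not taken to pair the libraries. Deviations of same-numbered libraries correlated above 0.1 in 18 of 28 pairs of populations (0.279 for CLP and T), above 0 in all 21 pairs without MEP and below 0 in all 7 with MEP (-0.908 to 0.823 over the 28), and a fit with the replicate block called 199 higher and 155 lower. Scarce RNAs, with under 10 CPM, are limited by depth, and the 2 libraries per population limit every test.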

Other observations

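A further 66 tested intervals are typed as miRNAs but do not carry a miRNA name. Of the 66, 20 (30.3%) were higher in CLP and 2 (3.03%) lower, with a median log2 difference of 0.93. Over all features the shares were 26.7% and 21.0%, so the upward share is near the background. A similar copy or an overlap was found for 52 of the 66, so single loci are uncertain. Gm27773 had 48.8 and 41.6 CPM in CLP and 5.91 and 9.34 in T (2.56 ± 0.22, adjusted p = 2.79e-06). n-TSaga9, whose name marks a serine tRNA gene, had 40.9 and 44.9 in CLP and 12.01 and 15.4 in T (1.65 ± 0.15, adjusted p = 5.38e-06). A second interval of this kind, n-TStga1, had 12.9 and 15.9 in CLP and 4.46 and 4.74 in T (1.65, adjusted p = 2.2e-05), and was picked with its values in view. Outside the main classes, the 2 largest falls with a mean of at least 10 CPM were Gm25301, with 17.3 and 18.7 in CLP and 47.5 and 55.9 in T (-1.52 ± 0.50, adjusted p = 0.0254), and the unclassified snoRNA Gm24119 of Slc25a3, with 9.62 and 10.3 in CLP and 26.9 and 25.1 in T (-1.39 ± 0.39, adjusted p = 0.0131). These missed the threshold under 5 and 4 of the other settings.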
